A study of Mus musculus with 8 samples.

Results

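Samples of CD8+ T cells had detectable transcripts of 4 of 10 genes for ASC, inflammasome sensors and inflammatory caspases. These were Pycard (ASC), Casp1, Casp4 and Aim2. Whether each signal came from the T cells or from other cells in a sample was not tested. The other 3 genes that had a probe, Nlrp3, Nlrp10 and Mefv, stayed at the background of the arrays in wild type cells. In ASC knockout cells Pycard fell to background, while no called difference was found at Casp1, Casp4 or Aim2. The 10 genes were chosen by name, and every probe that the platform annotation gives to one of them was taken, which made 10 probes of 25697 and covered 7 of the 10 genes, out of 16593 genes named on the arrays. For Nlrc4, Nlrp6 and Nlrp12 no probe carried the gene's name, and they were not analysed here.

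Each sample was CD8+ T cells of C57BL/6 mice on 1 single-colour Illumina MouseRef-8 array, with 4 samples from wild type mice and 4 from ASC knockout mice. The series title concerns the role of ASC in cytotoxic T cell differentiation apart from the inflammasome, so the comparison addresses which inflammasome parts these cells express and whether they differ without ASC. The knockout allele, the age of the mice, any stimulation of the cells and any pooling of samples are not stated in the labels. Nor do the labels say that replicates were separate animals, and the p-values therefore reflect sample-to-sample spread that may be technical.

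An inflammasome is a cytosolic complex that forms when a sensor meets a sign of infection or damage. NLRP3 responds to many kinds of cell stress, AIM2 to cytosolic DNA, and NLRC4, together with NAIP proteins, to bacterial flagellin and secretion system parts. Sensors with a pyrin domain recruit ASC, whose second domain, a CARD, gathers pro-caspase-1. Active caspase-1 cleaves the precursors of interleukin 1 beta and interleukin 18 and the pore-forming protein gasdermin D. Mouse Casp4 encodes caspase-11, which senses cytosolic lipopolysaccharide without ASC. These complexes are best known from macrophages and dendritic cells.

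The start regions of the deleted gene and of the 2 caspase genes detected on all arrays are printed here from RefSeq, since the values that follow turn on these 3 genes. Each run holds 300 bases, 250 before and 50 after the annotated start, 5′ to 3′. Capitals mark matches to an NF-kB motif on either strand.
Pycard (GRCm38.p6 chr7:127993818-127994117, minus strand): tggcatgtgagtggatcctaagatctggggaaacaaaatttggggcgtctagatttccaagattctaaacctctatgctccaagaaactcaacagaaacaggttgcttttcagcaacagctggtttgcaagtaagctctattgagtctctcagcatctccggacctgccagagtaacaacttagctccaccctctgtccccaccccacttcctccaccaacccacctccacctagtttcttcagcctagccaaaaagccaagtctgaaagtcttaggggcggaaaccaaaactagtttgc
Casp1 (GRCm38.p6 chr9:5298267-5298566, plus strand): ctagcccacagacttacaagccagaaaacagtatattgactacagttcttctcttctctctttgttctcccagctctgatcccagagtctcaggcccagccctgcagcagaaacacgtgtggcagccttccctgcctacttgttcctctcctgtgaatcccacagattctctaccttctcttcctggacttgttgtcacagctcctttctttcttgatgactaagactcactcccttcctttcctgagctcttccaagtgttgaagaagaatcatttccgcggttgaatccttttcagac
Casp4 (GRCm38.p6 chr9:5308599-5308898, plus strand): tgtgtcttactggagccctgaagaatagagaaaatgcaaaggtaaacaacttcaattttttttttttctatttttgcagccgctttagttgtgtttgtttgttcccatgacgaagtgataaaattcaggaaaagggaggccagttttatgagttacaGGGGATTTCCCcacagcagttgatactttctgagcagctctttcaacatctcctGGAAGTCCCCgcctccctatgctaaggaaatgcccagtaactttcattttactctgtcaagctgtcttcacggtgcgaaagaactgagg
The Casp4 run held 3 matches to the NF-kB motif, of which 2 overlap, and 8.46% of the 32851 windows of this length held at least 1. The interferon motifs ISRE (GAAA, any 2 bases, GAAA), in 3.44% of windows, and GAS (TTC, any 3 bases, GAA), in 8.3%, were not found in these 3 runs on either strand. A match describes letters and not a bound site.

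Median probe signals ran from 127.9 to 133.8 over the 8 arrays, and 42.8% to 45.4% of probes were detected on an array, that is, had a deposited detection p under 0.05. Of 9 T cell identity genes with a probe, 8 were detected on all 8 arrays, among them Cd8b1, the CD8 beta chain, whose signal at probe ILMN_2741169 averaged 29800 ± 1810 in wild type and 26830 ± 1520 in knockout cells (SD, n = 4 each). The 1 probe of Cd8a was detected on no array, so an undetected probe does not show that its gene is silent. Of 13 myeloid genes with a probe, 7 were detected on all 8 arrays, where 41.2% of all genes were. They were Lyz2, Fcer1g, Tyrobp, S100a8, S100a9, Ctss and Cebpb. Itgam and Cybb were detected on none. Lyz2 averaged 381.7 ± 68.1 in wild type and 324.3 ± 49.1 in knockout samples at its brightest probe, ILMN_1252076 (SD, n = 4 each). Of 9 B cell genes with a probe, 5 were detected on all 8 arrays (Cd79b, Cd22 and the MHC class II genes Cd74, H2-Aa and H2-Ab1) and 3 on none (Cd79a, Ms4a1 and Blk). Of 3 NK cell genes with a probe, Gzma was detected on all 8 arrays, Klrb1c on 3 wild type and 4 knockout arrays, and Ncr1 on none. The Cd4 probe was detected on 1 knockout array.

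Pycard, the deleted gene, was measured by probe ILMN_2936476. Its signals were 506.3, 489.9, 480.5 and 523.8 in wild type replicates 1 to 4. They were 118.6, 123.9, 120.1 and 123.4 in knockout replicates 1 to 4. All 4 wild type arrays detected the probe and no knockout array did, and the groups did not overlap. The knockout level was lower by limma's fit (adjusted p = 1.16e-09). The detection limit, apart from that fit, bounds the factor from below at 12.7-fold. This bound uses, on each knockout array, the lowest signal among detected probes when the probe itself was dimmer, and it was 5.44-fold with another background model and 3.58-fold without background correction. Where the probe lies relative to the deleted part of the gene is not given, so the check of the labels rests on its signal alone.

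**Figure D1:**
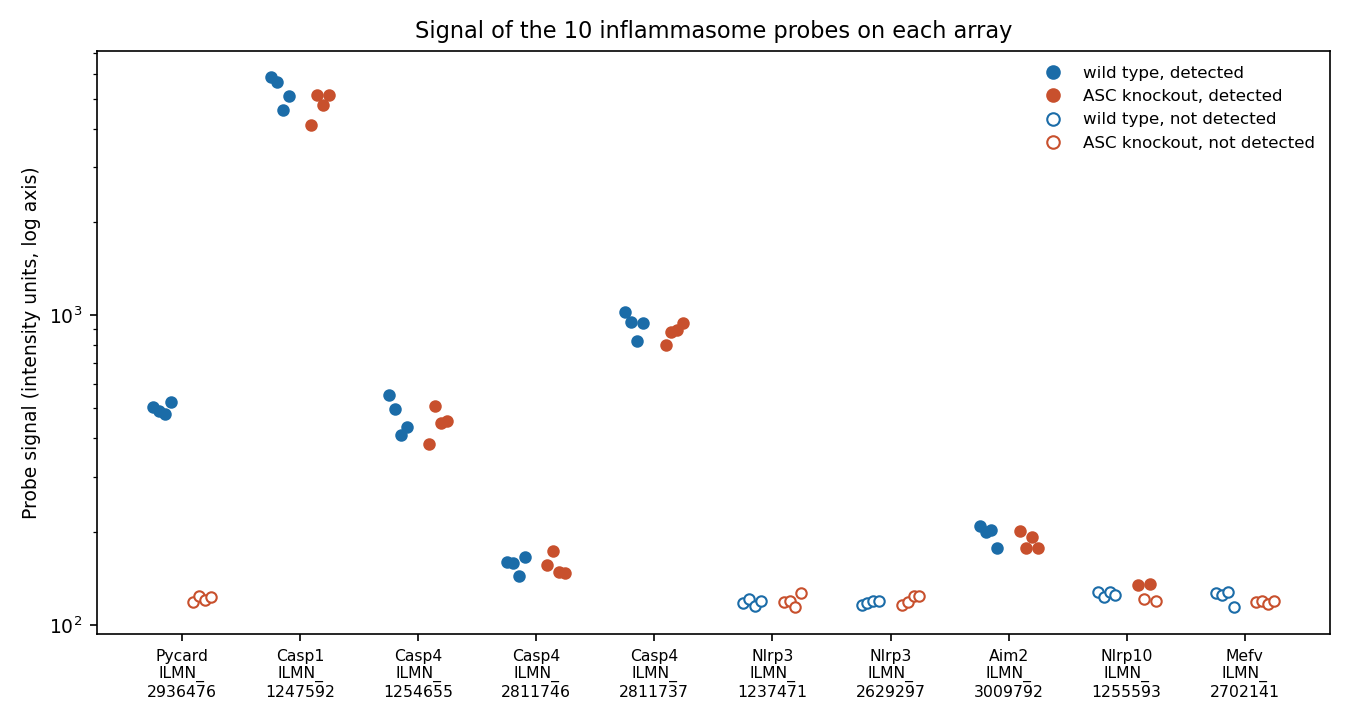
Signal of each inflammasome probe on each array (y axis, intensity units on a log scale; x axis, the 10 probes). Filled points had a detection p under 0.05 and open points did not; Pycard lies between 480.5 and 523.8 in wild type and between 118.6 and 123.9 in the knockout, where its points are open, as are all points of Nlrp3 and Mefv.

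Among the 10 probes, 6 were detected on at least 4 of the 8 arrays, the filter for testing, which 43.9% of all probes passed. They belonged to Pycard, Casp1, Casp4 (3 probes) and Aim2, and Pycard passed through its wild type arrays. The other 5 of these 6 were detected on all 8 arrays, as were 38% of all probes, and 3 of the 10 were detected on no array, as were 44.3%. Of these 6, 1 passed the adjusted p of 0.05, the Pycard probe. Over all genes 0.843% of the 11270 tested probes did so, 0.408% lower and 0.435% higher in the knockout. The groups did not overlap at that 1 probe of 6, where 8.12% of all tested probes had groups apart. Pycard is the deleted gene, so its call and separation were set by the design and show no excess over these shares. None of the other 5 was called, and their groups overlapped. Levels of different probes are not compared, because each probe binds its target differently.

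Casp1, the gene for caspase-1, had signals of 5856.3, 5669.2, 4605.1 and 5098.5 in wild type replicates 1 to 4. In knockout replicates 1 to 4 they were 4112.5, 5126.8, 4748.3 and 5124.4. The probe, ILMN_1247592, was detected on all 8 arrays, and the groups overlapped. By signal, wild type replicates 1 and 2 were highest and knockout replicate 1 lowest. Normalized log2 values were highest in knockout replicates 2 and 4 (12.388 and 12.354), and knockout replicate 1 stayed lowest. After normalization the log2 difference, knockout minus wild type, was -0.01 ± 0.0977 (SE, n = 4 per group, adjusted p = 0.975 by limma). Its 95% interval ran from -0.23 to 0.21, or from 0.854 to 1.15 as a ratio of knockout to wild type.

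Casp4, the gene for caspase-11, was covered by 3 probes, all detected on 8 of 8 arrays. Probe ILMN_2811737 had signals of 1020.8, 947.2, 823.4 and 943.1 in wild type and 799.4, 881.3, 892.4 and 941.6 in the knockout. Probe ILMN_1254655 had 550.7, 499.3, 409.1 and 436.5 in wild type and 384.0, 510.0, 447.6 and 454.7 in the knockout. In both, by signal, knockout replicate 1 was lowest and wild type replicate 1 highest, and the groups overlapped. The dimmest probe, ILMN_2811746, had 160.3, 159.1, 144.4 and 166.3 in wild type and 156.7, 173.1, 148.0 and 147.4 in the knockout. There knockout replicate 2 was highest and wild type replicate 3 lowest. The log2 differences were 0.04 ± 0.0904, 0.02 ± 0.143 and 0.06 ± 0.189 in this order (SE, n = 4 per group, limma adjusted p = 0.899, 0.975 and 0.927). The widest interval, that of the dimmest probe, ran from -0.36 to 0.48.

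Unlike Nlrp3, Nlrp10 and Mefv, Aim2, the sensor of cytosolic DNA, was detected on all 8 arrays. Its probe ILMN_3009792 had signals of 208.2, 199.5, 202.6 and 177.0 in wild type and 200.9, 176.7, 193.0 and 177.0 in the knockout. The groups overlapped, with wild type replicate 4 and knockout replicates 2 and 4 at the low end. The log2 difference was -0.05 ± 0.132 (SE, n = 4 per group, limma adjusted p = 0.917), with a 95% interval from -0.34 to 0.25. The intervals of Casp1, Casp4 and Aim2 bound the difference at each probe but do not show equal levels. In samples of many cells, fewer cells that express a gene and less RNA per cell cannot be told apart. Some myeloid and B cell genes were detected too, and their cells' part in the dim Aim2 signal was not tested.

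**Figure D2:**
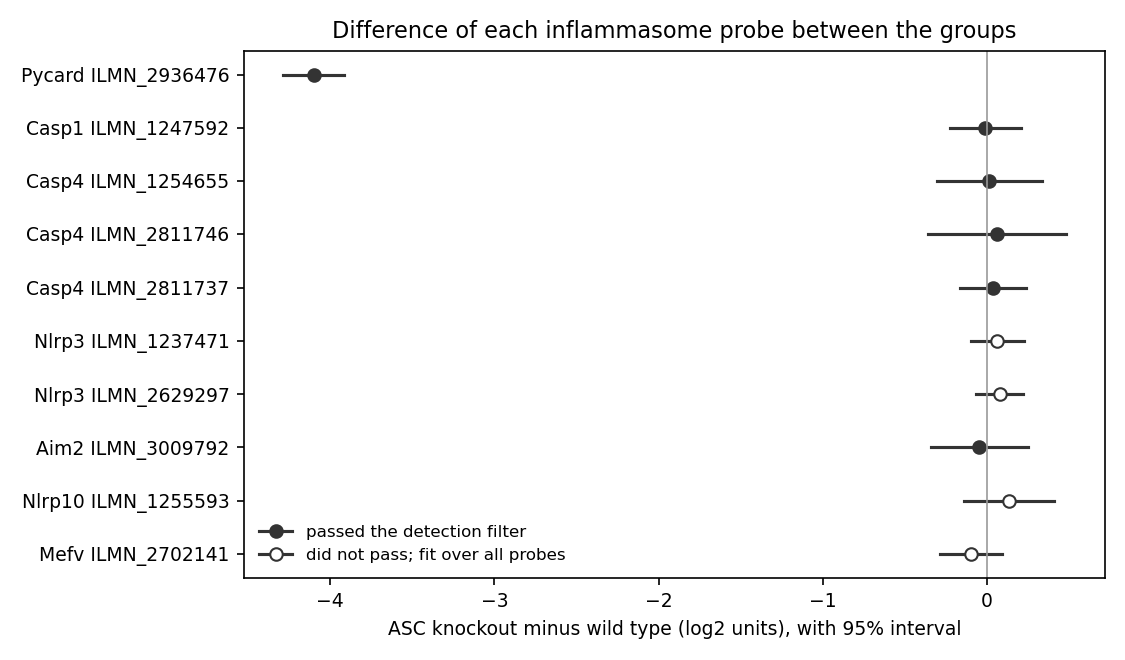
Difference between ASC knockout and wild type for each probe (x axis, log2 units; points are estimates and bars are 95% intervals, n = 4 per group). Pycard lies at -4.10, a value that rests on a background signal in the knockout, while the intervals of the 9 other probes hold 0; open points did not pass the detection filter and come from a fit over all 25697 probes.

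Nlrp3, the best studied sensor, had 2 probes, and neither was detected on any array. Probe ILMN_1237471 had signals of 117.8, 121.7, 115.1 and 119.7 in wild type and 118.6, 119.7, 114.3 and 126.7 in the knockout, at detection p-values from 0.241 to 0.877. Probe ILMN_2629297 had 116.1, 118.0, 119.7 and 119.7 in wild type and 116.2, 118.7, 123.9 and 124.3 in the knockout. The groups overlapped at both probes, and a level below the detection limit cannot be told from none. Mefv, the gene for pyrin, was likewise detected on 0 of 8 arrays. Its signals were 126.9, 124.8, 128.2 and 113.9 in wild type and 118.9, 119.7, 116.9 and 119.8 in the knockout.

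Nlrp10, an NLR protein that lacks the leucine-rich repeats of its relatives, was detected on no wild type array and on 2 knockout arrays. Signals were 127.6, 123.2, 127.4 and 125.3 in wild type and 134.5, 121.0, 135.2 and 119.8 in the knockout. Knockout replicates 1 and 3 were above all wild type arrays and replicates 2 and 4 below them. Their detection p-values of 0.0489 and 0.0476 lay just inside the threshold of 0.05. In a fit over all probes without the detection filter, Nlrp10 differed by 0.13 ± 0.122 (SE, n = 4 per group, limma adjusted p = 0.827). In the same fit both Nlrp3 probes (0.06 ± 0.0721 and 0.08 ± 0.0642) and Mefv (-0.10 ± 0.0843) had adjusted p-values from 0.808 to 0.864.

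Casp1 and Casp4 both lie on chromosome 9, and the normalized values of Casp1 and of 2 of the 3 Casp4 probes varied together from array to array. Of the 10 pairs among the 5 probes detected on all arrays, Casp1 correlated with Casp4 probe ILMN_1254655 at r = 0.914 (exact permutation p = 0.000942, adjusted 0.00806 over the 10 pairs, n = 8 arrays). The rank correlation was 0.929 (exact permutation p = 0.00223, adjusted 0.0223). With Casp4 probe ILMN_2811737, Casp1 had r = 0.922 (exact permutation p = 0.00161, adjusted 0.00806) and a rank correlation of 0.857 (exact permutation p = 0.0107, adjusted 0.0536). Without knockout replicates 1 and 2, the arrays farthest from the Casp1 median, r was 0.826 and 0.741.

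Within each group Casp1 and these Casp4 probes had a positive r as well, but each such r rests on 4 arrays and was not tested. For ILMN_1254655 r was 0.941 over the 4 wild type and 0.923 over the 4 knockout arrays, and for ILMN_2811737 it was 0.658 and 0.993. The dim Casp4 probe ILMN_2811746 had r = 0.264 with Casp1 (exact permutation p = 0.503), and Aim2 had r = -0.398 (exact permutation p = 0.333). The Casp4 probes followed each other less closely. ILMN_1254655 and ILMN_2811737 had r = 0.795 (exact permutation p = 0.0196, adjusted 0.0654), which was 0.403 without knockout replicates 1 and 2, and ILMN_2811746 had r = 0.466 and 0.266 with them (exact permutation p = 0.246 and 0.517). The co-variation with Casp1 was seen at ILMN_1254655 and ILMN_2811737 but not at the dim ILMN_2811746, and was not shown for Casp4 as a gene. These pairs were looked at after their values were seen, and the arrays share whatever makes 1 RNA sample differ from another. Among the 11270 tested probes, 15 other probes followed Casp1 more closely than ILMN_2811737 did and 19 more closely than ILMN_1254655. Casp1 and Casp4 are related genes, and whether a probe of one also binds transcripts of the other was not tested.

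**Figure D3:**
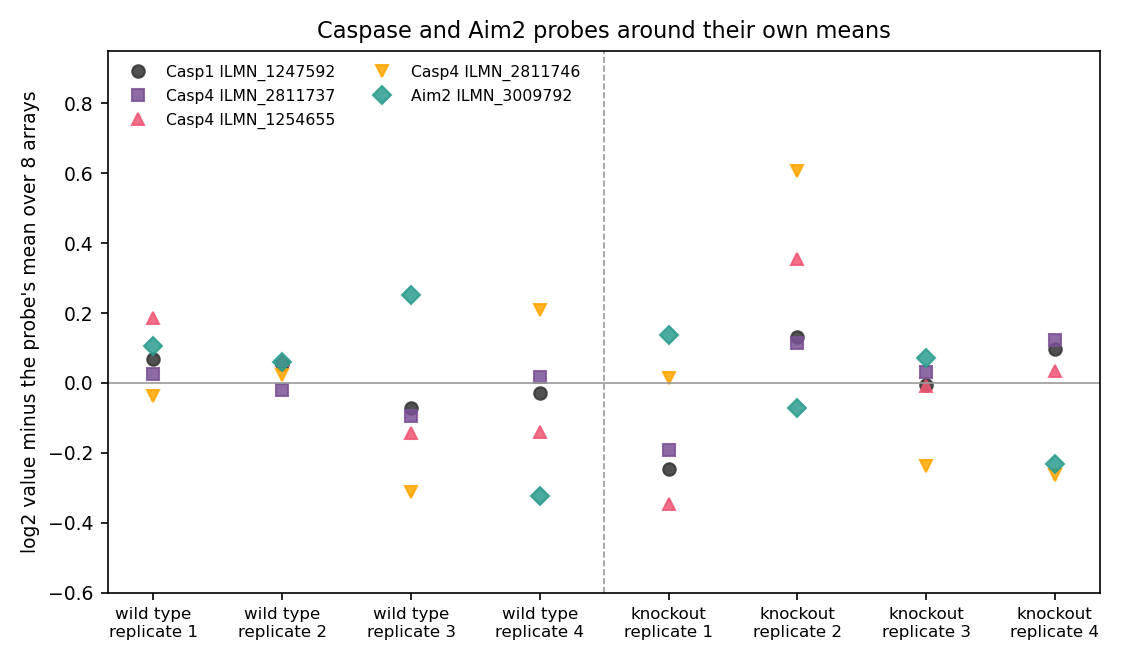
Normalized log2 value of each probe detected on all arrays, minus its own mean over the 8 arrays (y axis, log2 units), for each array (x axis; the dashed line parts wild type from knockout). Casp1 and the 2 brighter Casp4 probes are low together in knockout replicate 1 and high together in knockout replicate 2, while Aim2 is above its mean in the first and below it in the second. The third Casp4 probe is high in knockout replicate 2 but not low in replicate 1.

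The genes whose values were most like those of Casp1 over the 8 arrays were Mad2l1bp (r = 0.985), Mettl23 (r = 0.98) and Tmem168 (r = 0.974). Those most like Casp4 at its brightest probe, ILMN_2811737, were Ndufb10 (r = 0.966), Tmem168 (r = 0.951) and Dpy30 (r = 0.951). For Aim2 they were Ctc1 (r = 0.961), Tmem120b (r = 0.954) and Ttpal (r = 0.951). These are the highest of 11270 correlations over 8 arrays and serve as a description.

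Of 14 other NLR family genes with a probe, 5 were detected on all 8 arrays at 1 or more probes, where 41.2% of all 16593 genes were, so the share is near that of the whole array. Nlrc3, an NLR protein known to restrain T cell activation, averaged 1749 ± 47.9 signal units in wild type cells and 1700 ± 336 without ASC (SD, n = 4 each, probe ILMN_1217913). Nlrc5, the transactivator of MHC class I genes, was at 1586 ± 125 and 1411 ± 148 (SD, n = 4 each). Nod1, a sensor of bacterial peptidoglycan, was at 1098 ± 62.1 and 1085 ± 167 (SD, n = 4 each), and Nlrx1, a mitochondrial NLR protein, at 362.6 ± 18.3 and 353.4 ± 28.5 (SD, n = 4 each, probe ILMN_2958484). Naip2, which in mice binds the rod protein of bacterial secretion systems, was at 227.8 ± 11.5 and 223.3 ± 8.61 (SD, n = 4 each). These signals are not normalized. After normalization the log2 differences at these probes were 0.06 for Nlrc3, 0.11 for Nod1, 0.08 for Nlrx1, 0.07 for Naip2 and -0.04 for Nlrc5.

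Another 8 of these 14 genes, among them Nod2, Ciita and Nlrp1a, were detected on no array, where 41% of all genes were. Naip5, whose mouse protein binds flagellin, reached detection on 1 wild type and 3 knockout arrays at 1 of its 2 probes. None of the 6 tested genes was called, and their log2 differences ran from -0.04 (Nlrc5) to 0.11 (Nod1) with a median of 0.07, beside -0.0069 over all tested probes. At an unadjusted limma p under 0.05, 0 of the 6 passed at the brightest probe, where 13% of all 7759 tested genes did. Of 4 measured genes of the HIN-200 family, to which Aim2 belongs, none passed the detection filter, and Ifi204, Ifi202b and Ifi209 (formerly Pyhin1) were detected on no array.

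Among the caspase-1 substrates, Il18 was detected on all 8 arrays, averaging 157 ± 19.7 in wild type cells and 150.4 ± 7.62 without ASC (SD, n = 4 each). Il1b, detected on 1 wild type and 3 knockout arrays, was at 136.2 ± 3.85 and 142.9 ± 16.1 (SD, n = 4 each) and was not called (limma adjusted p = 0.617). Myeloid markers, of which 7 of 10 tested lay above 0, had mean log2 levels per array of 6.85 to 7.09 in wild type and 6.83 to 7.42 in the knockout. None of the 10 was called. Of all 7759 tested genes 13% had an unadjusted limma p under 0.05 at the brightest probe, and 4 of these 10 did. These were S100a9 at 1.08 ± 0.329, S100a8 at 0.83 ± 0.32, Csf3r at 0.32 ± 0.142 (ILMN_1255648) and Ctss at -0.34 ± 0.131 (log2 difference ± SE, n = 4 per group), with limma adjusted p-values of 0.187, 0.301, 0.376 and 0.307. The part of myeloid cells in the Il1b and Il18 signals was not tested. Il1a was detected on no array.

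Gasdermin D (Gsdmd), the pore former of pyroptosis, was detected on all 8 arrays at each of its 3 probes. Its log2 differences were -0.17 ± 0.102 (ILMN_2941324), -0.29 ± 0.0737 (ILMN_2752790) and -0.17 ± 0.0861 (ILMN_2748928; SE, n = 4 per group each), with limma adjusted p-values of 0.54, 0.123 and 0.458. The groups did not overlap at the last 2 of these probes, where 8.12% of all tested probes had groups apart, and none was called. The 3 probes measure 1 gene on the same arrays and are not independent. Txnip, a protein that binds NLRP3 under oxidative stress, was at 0.37 ± 0.156 (SE, n = 4 per group, limma adjusted p = 0.351). Casp8, a caspase of death receptors that also joins inflammasomes, was at 0.06 ± 0.129 at its brightest probe, ILMN_1243876, and P2rx7, the ATP receptor upstream of NLRP3, at -0.01 ± 0.173 at its brightest, ILMN_3162824 (SE, n = 4 per group each). The 1 probe of Nek7, a kinase that NLRP3 needs, was detected on no array. Of the 10 tested regulators, 5 lay above 0 and 5 below, the median was 0.02, and 0 were called. At an unadjusted limma p under 0.05, 1 of the 10 passed at the brightest probe, where 13% of all 7759 tested genes did.

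**Figure D4:**
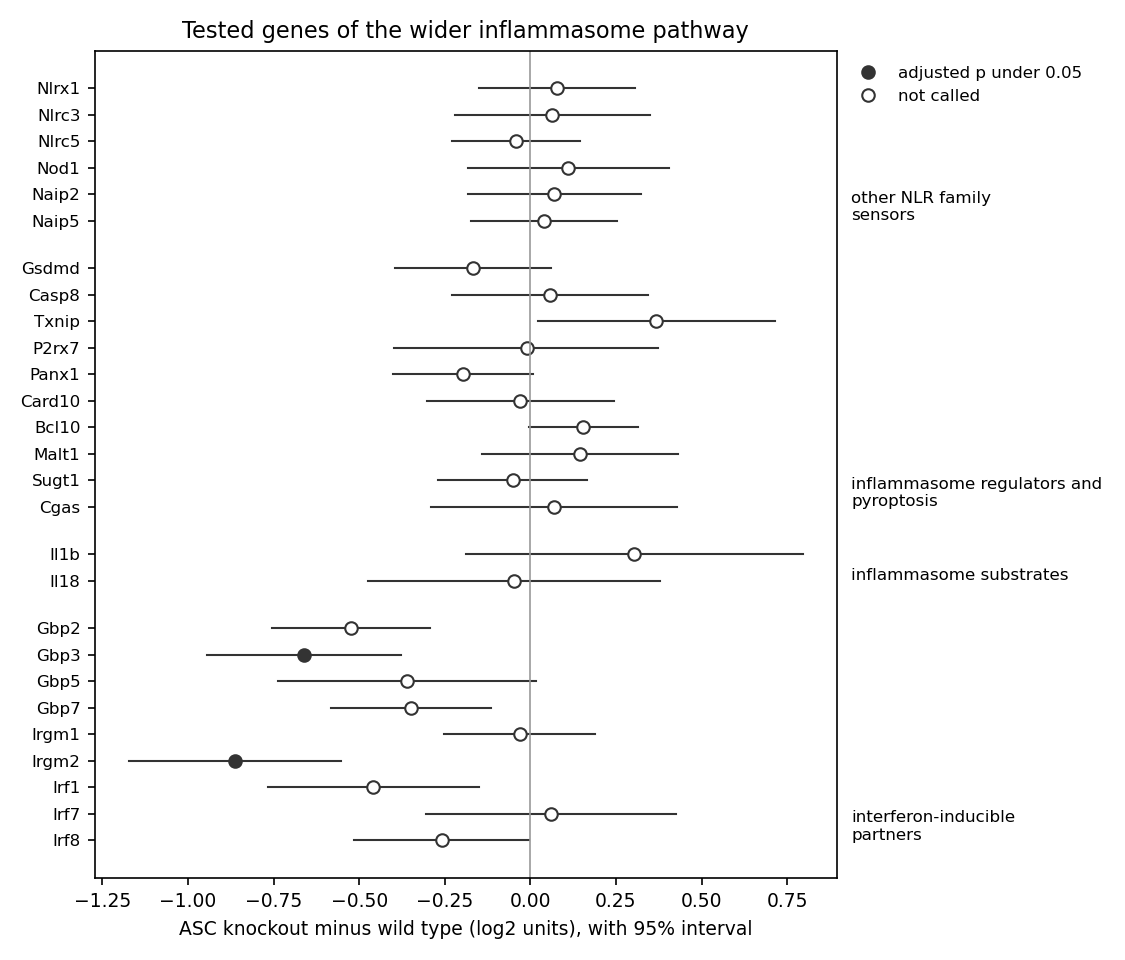
Difference between ASC knockout and wild type for the brightest tested probe of each gene in the wider pathway (x axis, log2 units; bars are 95% intervals, n = 4 per group). Filled points passed the adjusted p; they are Gbp3 and Irgm2, and Irf1 passed at dimmer probes not drawn here.

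Of 9 tested genes in a list of interferon-inducible genes, 3 were called at 1 or more probes, all lower in the knockout. Of all tested genes 0.516% were called lower. The list was chosen with earlier results of these data known, so its counts are a description and not a test. At the brightest probe of each gene 2 of the 9 were called, Gbp3 and Irgm2, where 0.438% of all genes were called lower. At that probe the unadjusted limma p was under 0.05 for 6 of the 9, and for 13% of all 7759 tested genes. The list holds GBP proteins, GTPases that expose bacterial contents to caspase-11 and AIM2. It also holds the IRG family GTPases Irgm1 and Irgm2 and interferon regulatory factors such as Irf1. Irf1 fell by 0.84 ± 0.0996 at probe ILMN_2649068 (SE, n = 4 per group, limma adjusted p = 0.00484), Irgm2 by 0.86 ± 0.14 (limma adjusted p = 0.0236) and Gbp3 by 0.66 ± 0.127 at its brighter probe, ILMN_2918002 (limma adjusted p = 0.0479). The brightest of the Irf1 probes, ILMN_2834777, was not called, at -0.46 ± 0.139 (limma adjusted p = 0.184). Gbp2 was at -0.52 ± 0.104 at its brightest probe, ILMN_3122961 (limma adjusted p = 0.0532). The list had 8 of 9 genes below 0 and a median of -0.36 at the brightest probe of each gene, while Aim2, Casp4 and Casp1 had estimates from -0.05 to 0.06. The call of Irgm2 was lost without wild type replicate 1, 2 or 3 or knockout replicate 1, 2 or 4, and that of Gbp3 without wild type replicate 1, 2 or 3 or knockout replicate 1 or 3. Irf1 was called, at 1 or more probes, in all 8 fits without 1 array.

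Of 4 tested marker genes of CD4 and regulatory T cells, 1 was called, higher in the knockout, where 0.435% of all tested probes were. Cd4 itself did not pass the detection filter, and the list was chosen with earlier results of these data known. The mean log2 level of the 4 tested genes per array was 6.66 to 7.13 in wild type and 7.35 to 7.51 in the knockout, with no overlap. Taken singly, 8.12% of all tested probes had groups apart, and no such share was computed for means of 4 genes. The median difference of the 4 tested genes was 0.57. Foxp3, the regulatory T cell transcription factor gene, was called and was 1.09 ± 0.138 higher at probe ILMN_2635132 (SE, n = 4 per group, adjusted p = 0.00576 by limma). Its dimmer tested probe, ILMN_2917180, was at 1.01 ± 0.241 (limma adjusted p = 0.103). Ctla4, an inhibitory receptor gene, was at 0.63 ± 0.184 and Il2ra, the gene of the interleukin 2 receptor alpha chain, at 0.51 ± 0.176 (SE, n = 4 per group, limma adjusted p = 0.166 and 0.24). Zbtb7b, a CD4 lineage factor gene, was at -0.0050 ± 0.111 (limma adjusted p = 0.991). At the brightest probe 3 of the 4 genes had an unadjusted limma p under 0.05, where 13% of all 7759 tested genes did. The part of these markers in the differences of the interferon-inducible genes was not tested.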

How the data were processed

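Column-purified, DNase-treated RNA was amplified to biotinylated cRNA, per the labels' protocols, and GenomeStudio is named per the submitters' processing notes. The deposited intensity values are not normalized, per the file headers, and reach down to 101.1, which leaves no sign of background subtraction. A detection p-value accompanies each of them, per the file headers. The authors' deposited value table holds log2 values that equal quantile-normalized, median-centred log2 signals within 0.00211 and keep no absolute level. No header states this scaling, and its column medians ran from -0.000454 to 0.000527.

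Intensities of 25697 probes were background-corrected with limma's nec (offset 16), quantile-normalized and log2-transformed. The 11270 probes detected on at least 4 of 8 arrays were fitted with lmFit and eBayes and adjusted by Benjamini-Hochberg (R 4.3.3, limma 3.58.1). Fits without 1 array kept the same probes. Code was tested on simulated data. Of all probes, 23978 had 1 gene symbol and 1719 none, and Entrez identifiers tied 23962 to genes of GRCm38.p6. For genes with several probes, medians and unadjusted counts of a list use the brightest tested probe, and a gene counts as called or detected if any of its probes is, unless the brightest probe is named.

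All probes of the 10 genes were named whatever their result. From the pathway lists, called genes and a set of named genes were given, and of the latter no probe carried the names Nlrp1b or Ifi203, and some other genes of the lists are not reported here. The 3 most correlated genes were named for members detected on all arrays. The members and lists were chosen with earlier results of these data known. Alternatives changed the background model, normalization, detection filter, source table, array weights, variance model, replicate block and arrays used. No slide or scan batch is given in the sources used here, and the number of arrays limits the precision.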

Additional observations from a re-analysis of the deposited data

Results flagged for a closer look

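An array was looked at again when it stood apart from the other 3 of its group by Dixon's ratio (gap over range) at the 95% critical value. Of 60 groups of 4 values, 5 met this, where chance gives about 1 in 20. None belonged to the 10 probes of inflammasome genes. Il18 was high in wild type replicate 1, at a log2 value of 6.19 against 5.29 to 5.38 (ratio 0.904). Irgm2 was low in wild type replicate 4, at 8.54 against 9.04 to 9.13 (ratio 0.849), and Gbp2 (ILMN_3122961) low in knockout replicate 1, at 10.64 against 10.77 to 10.78 (ratio 0.925). Cd8b1 (ILMN_2741169) was low in wild type replicate 4, at 14.66 against 14.85 to 14.86 (ratio 0.92). Foxp3 (ILMN_2635132) was high in wild type replicate 3, at 6.26 against 5.67 to 5.75 (ratio 0.858).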

How the results depend on the processing

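The Pycard difference kept its direction and call in all 17 alternatives that tested it, from -4.16 to -4.06 when 1 array was left out and from -4.14 to -1.98 otherwise. Its lower bound was 12.4 to 12.9 without 1 array, 5.44 with normexp at an offset of 50 and 3.58 without background correction. The number of called probes among the 10 stayed at 1 except 0 when detection on all 8 arrays was required, which removes Pycard. Between 5 and 6 of the 10 probes passed the detection filter when 1 array was left out, since Pycard then has 3 wild type arrays, and between 5 and 7 at other thresholds. No fit called Casp1, Casp4 or Aim2, with adjusted p-values of at least 0.612. Their estimates near 0 changed sign in some fits. Median scaling gave -0.060 for Casp4 probe ILMN_1254655 and -0.063 for ILMN_2811737, and array weights gave -0.0078 for the former. Without 1 array Casp1 ran from -0.056 to 0.071, the Casp4 probes from -0.099 to 0.134 (ILMN_1254655), from -0.134 to 0.158 (ILMN_2811746) and from 0.0032 to 0.108 (ILMN_2811737), and Aim2 from -0.162 to 0.030.

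Called genes in the pathway lists, at any probe, numbered 3, and between 1 and 4 without 1 array and between 2 and 4 otherwise. Gbp2 was the gene added where 4 were called. Over all tested probes 95 were called, against 197 with normexp, 224 without background correction, 224 with the deposited value table, 233 with a variance trend and robust fit, 62 without the detection filter and 32 to 81 without 1 array. Replicates with the same number were not shown to be paired, as their deviations correlated at 0.0139, 0.107, 0.132 and -0.0999. With the replicate block 51 probes were called, the Pycard difference was -4.10 and 2 pathway genes remained, Irf1 and Irgm2. The cause of these shifts was not tested. Signals near background, as for Nlrp3, Nlrp10 and Mefv, limit what the arrays can show.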
